A study of Homo sapiens with 20 samples.

Results

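The polo-like kinase genes PLK1, PLK2, PLK3 and PLK4 were followed in NGP cells, an established human neuroblastoma cell line, with and without nutlin-3. The 4 genes were taken by their gene names from the 34439 protein-coding and lncRNA genes in the files, and all 4 passed the minimum of 1 count per condition that left 27697 genes to test. Of the 20 samples, 10 were treated with 8 µM nutlin-3, as a racemic mixture, and 10 with ethanol as vehicle. Nutlin-3 binds MDM2 and thereby keeps it from p53, and the length of treatment is not given in the sources used here. Poly(A) RNA was sequenced as stranded pairs of 75 nt reads, and 14455477 to 19532971 estimated counts were obtained per sample. All samples come from this 1 cell line, so that the p-values measure the spread between its cultures. All 10 sympathoadrenal neuroblastoma markers had a mean of 1 TPM or more over the 20 samples. Their summed level ranged from 4272 to 5124 TPM in vehicle and from 4633 to 5616 TPM in nutlin samples. The Schwann and immune markers all had means below 1 TPM, with CD3E at 0 in every sample, and of 5 stromal markers 2 reached a mean of 1 TPM. The stromal markers summed to 4.77 to 9.03 TPM in vehicle and 8.39 to 12.5 TPM in nutlin samples, and their part in the results was not tested.

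Polo-like kinases are serine/threonine kinases that recognise their substrates through a polo-box domain. PLK1 acts in mitosis, from entry and spindle assembly to cytokinesis, and is made mainly in G2 and M phase. PLK4 is the kinase that starts centriole duplication. PLK2 and PLK3 were first described as serum- and stress-inducible genes, and PLK2 is a known target of p53. The comparison made here sets the stress-induced pair against the mitotic and centriolar pair. PLK5, the remaining gene of the family, lacks a complete kinase domain in humans.

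The genes lie on 4 chromosomes (GRCh38, GENCODE release 44). PLK1 spans chr16:23677656-23690367 on the plus strand, PLK2 chr5:58453982-58460139 on the minus strand, PLK3 chr1:44800377-44805990 on the plus strand and PLK4 chr4:127880893-127899224 on the plus strand. No annotated gene overlaps PLK2. The ends of ERN2 and DYNLT4 overlap PLK1 and PLK3 on the opposite strand, an antisense lncRNA lies within PLK1, and the small nuclear RNA gene RNU6-583P lies within PLK4 on the same strand.

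The 110 bases upstream of each start site are shown because the 4 promoters differ in the short motifs they hold. The sequences are from RefSeq (GRCh38.p14), 5′ to 3′ on the gene's own strand, at chr16:23678779-23678888 for PLK1, chr4:127880783-127880892 for PLK4, chr5:58460087-58460196 for PLK2 and chr1:44800267-44800376 for PLK3. Capitals mark matches, on either strand, to CCAAT, to GGGCGG (GC box), to TGACGT (found in the cAMP response element), to TTTGAA (CHR, the cell cycle genes homology region) and to TATATAA. The last was added after the PLK2 sequence had been seen.
PLK1: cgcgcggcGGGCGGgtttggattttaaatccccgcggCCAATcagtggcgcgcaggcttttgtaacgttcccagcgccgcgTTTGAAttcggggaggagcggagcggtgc
PLK4: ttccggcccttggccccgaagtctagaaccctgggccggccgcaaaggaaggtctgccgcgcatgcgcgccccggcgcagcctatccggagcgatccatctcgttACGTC
PLK2: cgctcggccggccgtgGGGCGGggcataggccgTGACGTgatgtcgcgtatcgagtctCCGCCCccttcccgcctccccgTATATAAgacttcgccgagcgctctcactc
PLK3: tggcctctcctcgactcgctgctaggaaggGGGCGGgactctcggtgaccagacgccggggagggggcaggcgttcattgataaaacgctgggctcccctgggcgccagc

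The windows searched ran from 250 bases before to 50 bases after the start, 300 bases in all. PLK1 held a CHR at -29 to -24 and a CCAAT box at -73 to -69, counted from the start site. PLK4 held a CHR on the other strand, 39 to 44 bases into the transcribed part (chr4:127880913-127880942, ggcaagcggcgggagattTTCAAAatggga, with the CHR in capitals), and the response element letters across the start site. PLK2 held TATATAA at -30 to -24, the response element letters at -77 to -72 and GC boxes on both strands. PLK3 held GC boxes and none of the other motifs. A GC box was also found in PLK1, at -102 to -97, and in PLK4, on the other strand at -137 to -132, so that every member held one. Of 35114 RefSeq promoters of this length, 15.2% held a CHR, 34.6% CCAAT, 45.0% a GC box, 7.98% the response element letters and 2.57% the TATA-like letters of PLK2. An E-box, CACGTG, was found in 7.26% of promoters and among the members in PLK1 alone, at -198 to -193. The canonical TATA box, spelled TATAAA, was found in 11.5% of promoters and in none of the members. These are matches of letters and not measured binding.

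A 20-base element that fits the p53 consensus without a mismatch lies 2207 bases upstream of the PLK2 start, at chr5:58462274-58462293 on the minus strand. It reads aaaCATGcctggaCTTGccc, with the 4 core letters of each of its 2 repeats in capitals. Within 2500 bases on either side of the start, a perfect element with no spacer was found for 29 of 27305 RefSeq genes (0.106%), and 674 genes (2.47%) had one with at most 2 mismatches. No element with at most 2 mismatches was found in these windows for PLK1, PLK3 or PLK4. Mismatches were allowed only outside the core letters. Elements with a mismatch in the core, with a spacer or farther away were not searched.

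After nutlin-3 the family divided into 2 pairs. PLK2 and PLK3 rose 6.98-fold and 9.50-fold, whereas PLK1 and PLK4 fell to levels 6.42-fold and 5.20-fold lower. In none of the 4 genes did a vehicle sample overlap with a nutlin sample. Calls were very frequent in this dataset: 58.8% of the 27697 genes tested were significantly differentially expressed (SDE) at 5% FDR, 32.3% higher and 26.5% lower, so that a call alone says little about a member. The conditions did not overlap for 12.2% of genes in the upward and 16.6% in the downward direction. The members nonetheless moved further than most genes. Of the 15168 genes whose mean CPM (counts scaled to library size) was 1 or more, 0.521% fell further than PLK1 and 0.897% fell further than PLK4, while 2.0% rose further than PLK2 and 1.52% further than PLK3. In bulk RNA, fewer cells in a phase of the cell cycle and less RNA per cell cannot be told apart.

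PLK1, the mitotic kinase, was counted 2727 times in the lowest, 3256.5 times in the median and 3821 times in the highest vehicle sample. In nutlin samples its counts were 425, 531.5 and 610, so that every nutlin sample lay far below every vehicle sample. Its mean fell from 220 ± 25.8 to 34.3 ± 4.16 CPM (SD, n = 10 each), a log2 fold change (LFC) of -2.68 with a standard error of 0.0691 (edgeR quasi-likelihood test, adjusted p = 4.87e-24). The lowest vehicle sample still exceeded the highest nutlin sample 4.53-fold.

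PLK4, the kinase of centriole duplication, had counts of 1223, 1590.5 and 1885 in the lowest, median and highest vehicle sample and of 248, 316.5 and 365 in the nutlin samples. It was the steadiest member in vehicle, at 105 ± 5.51 CPM, and fell to 20.2 ± 2.42 CPM. The LFC was -2.38 with a standard error of 0.0532 (edgeR, adjusted p = 1.79e-25), and the closest samples of the 2 conditions differed 4.07-fold.

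PLK2 was counted 427, 589 and 841 times in the lowest, median and highest vehicle sample and 3280, 4393.5 and 4880 times in the nutlin samples. Its mean rose from 39.0 ± 9.25 to 272 ± 25.6 CPM, with an LFC of 2.80, a standard error of 0.0959 and an adjusted p of 5.1e-21 (edgeR). The spread among vehicle samples was wide for this gene, the highest exceeding the lowest 2.22-fold in CPM, but the lowest nutlin sample was still 3.88-fold above the highest vehicle sample.

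PLK3, the least abundant member in vehicle, had counts of 77, 116 and 159 in the lowest, median and highest vehicle sample. In nutlin samples the counts were 960, 1162 and 1216. The mean rose from 7.66 ± 1.48 to 72.8 ± 4.61 CPM, the largest change of the 4, with an LFC of 3.25 and a standard error of 0.0723 (edgeR, adjusted p = 1.63e-25). The closest samples of the 2 conditions differed 6.41-fold. PLK5 was barely detected, with 0 or 1 counts per vehicle sample and 1 to 8 counts per nutlin sample.

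Levels of different genes were compared per length, as TPM. In vehicle the order was PLK1 (116 ± 11.9 TPM), PLK4 (60.6 ± 4.99), PLK2 (21.7 ± 5.83) and PLK3 (6.39 ± 1.38). This order held in 10 of 10 samples, and no neighbours overlapped. After nutlin-3 the order was PLK2 (147 ± 11.2 TPM), PLK3 (51.1 ± 4.58), PLK1 (18.4 ± 2.63) and PLK4 (12.2 ± 2.62). It held in 9 of 10 samples, and in the remaining sample PLK4 lay above PLK1. PLK1 and PLK4 were the only neighbours whose ranges overlapped. Where only transcripts annotated as protein coding were summed, PLK3 reached 15.2 ± 2.47 TPM and PLK1 15.8 ± 2.25 TPM after nutlin-3, so that the order of these 2 genes depended on the transcripts counted.

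**Figure D1:**
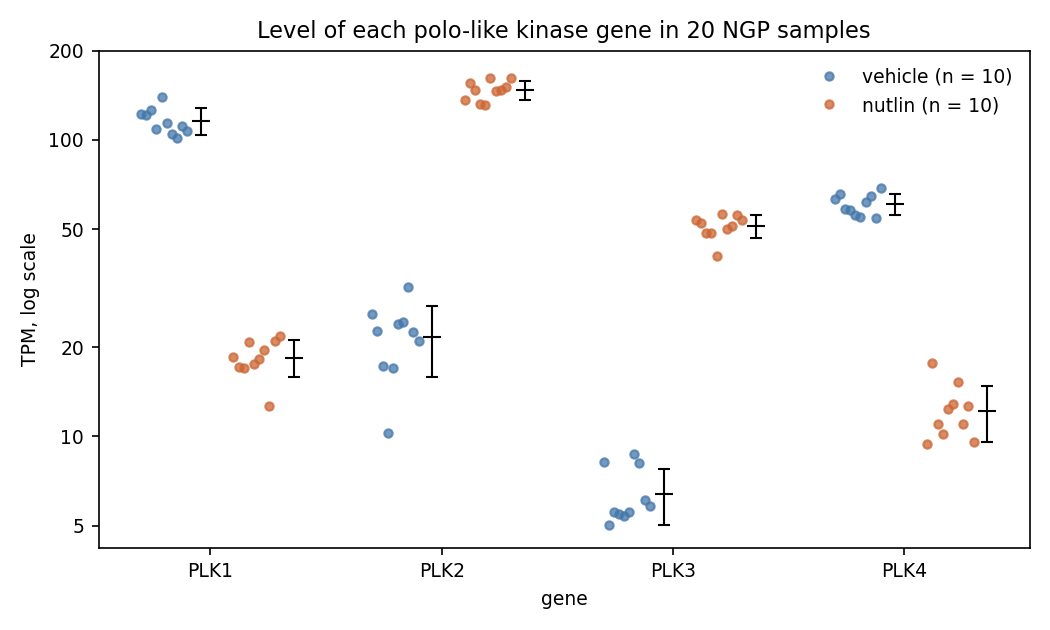
TPM, on a log scale, of PLK1, PLK2, PLK3 and PLK4 in 10 vehicle (blue) and 10 nutlin (orange) samples, with 1 point per sample and bars for the mean ± SD. PLK1 and PLK4 lie lower and PLK2 and PLK3 higher in every nutlin sample, and the rarest gene in vehicle, PLK3 at 6.39 TPM, lies above PLK1 and PLK4 after nutlin-3.

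The summed TPM of the 4 genes was 205 ± 11.5 in vehicle and 229 ± 16 in nutlin samples, made up in different proportions. PLK1 made up 56.6% ± 4.40 of this sum in vehicle and 8.07% ± 1.17 after nutlin-3, and PLK4 29.7% ± 2.49 and 5.33% ± 1.04. PLK2 went from 10.6% ± 2.76 to 64.3% ± 1.47 and PLK3 from 3.13% ± 0.668 to 22.3% ± 1.25. PLK1 and PLK4 together fell from 176 ± 11.2 to 30.7 ± 3.45 TPM, and PLK2 and PLK3 together went from 28.1 ± 6.81 to 198 ± 14.8 TPM. Each of these values sums all transcripts of a gene. With protein-coding transcripts alone, mean TPM went from 108 to 15.8 for PLK1 and from 35.1 to 6.64 for PLK4. It went from 13.3 to 91.5 for PLK2 and from 1.07 to 15.2 for PLK3. The 4 genes together were then lower after nutlin-3, so that the direction of the sum depended on the transcripts counted. The shares then differ too and were not computed.

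**Figure D2:**
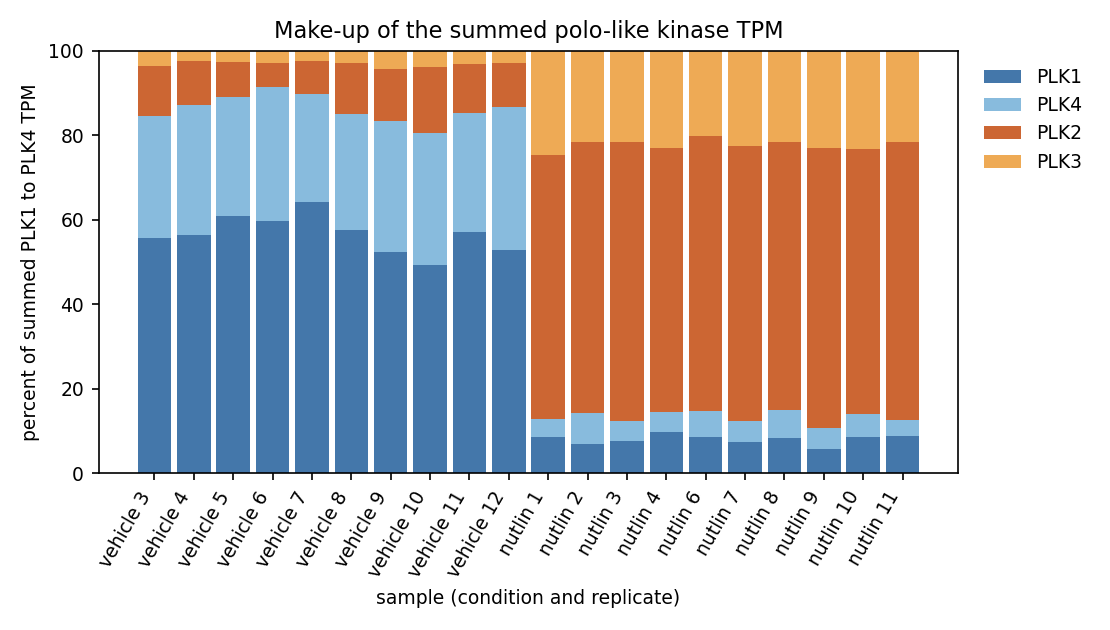
Percent of the summed PLK1 to PLK4 TPM that each gene made up, over all its transcripts, with 1 stacked bar per sample. PLK1 and PLK4 (blue) fill most of each vehicle bar, and PLK2 and PLK3 (orange) fill most of each nutlin bar, PLK2 alone between 62.4% and 66.3%.

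The difference in response between members was tested on their ratio within each sample, as log2 of the ratio of CPM + 0.5, over the 6 pairs. The ratio of PLK2 to PLK1 ranged from -3.10 to -1.89 in vehicle and from 2.52 to 3.50 in nutlin samples, a difference of 5.48 ± 0.164 (SE; two-sided permutation test with 100000 resamples, adjusted p = 3e-05). PLK2 to PLK4 differed by 5.17 ± 0.113, PLK3 to PLK1 by 5.85 ± 0.136 and PLK3 to PLK4 by 5.54 ± 0.0951, each with an adjusted p of 3e-05. The raw p of 1e-05 or 2e-05 behind these is at or next to the smallest that 100000 resamples can give. In these 4 pairs the members had moved in opposite directions without overlap. The outcome of their tests was thus given by the single-gene results and adds no evidence to them.

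Within the pairs the differences were small. PLK2 to PLK3 changed by -0.37 ± 0.0671 (adjusted p = 9.6e-05), that is, PLK3 rose further, but on TPM the difference was -0.14 with an adjusted p of 0.251. PLK1 to PLK4 changed by -0.31 ± 0.105 (adjusted p = 0.0104), so that PLK1 fell somewhat further. Adding 0.5 to the CPM understates the change of PLK3 in particular, whose vehicle level is low.

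The genes that activate PLK1, serve as its docking partners or substrates, or turn it over were all lower after nutlin-3. Of 25 such genes 25 were SDE and lower, against 26.5% of all genes tested. None overlapped between conditions, whereas 16.6% of all genes were lower without overlap. Their median LFC was -2.56, beside 0.19 for all genes and -2.68 for PLK1 itself. This held for the 7 genes of activation (median -2.64), the 5 of mitotic entry (-2.07), the 11 docking partners and effectors (-2.66) and the 2 of turnover (-1.75). The 4 that fell most were CEP55, which acts in abscission, from 93.7 to 9.94 CPM (LFC -3.24 ± 0.0653 SE), MYBL2, a transcription factor of the cell cycle, from 341 to 38.4 CPM (-3.15 ± 0.0587), CCNB1, the mitotic cyclin B1, from 317 to 37.9 CPM (-3.06 ± 0.0619), and KIF20A, a kinesin of the central spindle, from 273 to 33.8 CPM (-3.02 ± 0.0697). AURKA, the kinase that phosphorylates PLK1, fell with an LFC of -2.59 ± 0.0605, but its cofactor BORA fell by less (-0.97 ± 0.108). RefSeq promoters were available for 20 of these 25 genes, and 16 of their 31 promoters held the CHR letters that PLK1 also has (51.6%, beside 15.2% of all promoters). The list was chosen with earlier results of these data known. Many of its genes act in mitosis, as PLK1 does, so their direction is a description and not independent evidence about PLK1.

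The PLK4 list moved in the same direction by less. Of its 19 genes 17 were lower, against 26.5% of all genes tested, and 1 was higher, against 32.3%. The remaining 1, CEP120, was not called (LFC -0.05, edgeR, adjusted p = 0.284), and the median LFC of the list was -0.91. Besides genes of centriole duplication the list holds 3 of protein turnover and 2 of centrosome surveillance, all of them among the lower ones. Without overlap between conditions 15 were lower, against 16.6% of all genes. PLK4 itself, at -2.38, fell further than all 19. The largest changes were in STIL, which binds and activates PLK4 (56.3 to 12.8 CPM, LFC -2.14 ± 0.0583), CEP152, which recruits it (56.7 to 17.4 CPM, -1.70 ± 0.0580), SASS6, the cartwheel protein (24.2 to 8.31 CPM, -1.54 ± 0.0809), and USP28, a deubiquitinase of the response to centrosome loss (14.7 to 5.33 CPM, -1.46 ± 0.0710). CCP110, which caps centrioles and limits their length, was the 1 gene that rose, from 92.1 to 153 CPM (0.73 ± 0.0421, adjusted p = 1.67e-15). Of 24 promoters of 16 of these genes 5 held a CHR (20.8%).

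Named substrates of PLK2 and PLK3 moved in both directions. CDC25A, a phosphatase that drives S phase entry, fell from 128 to 18.2 CPM (-2.81 ± 0.0513), CHEK2, a checkpoint kinase, fell from 25.4 to 11.9 CPM (-1.10 ± 0.121), and HIF1A fell by 0.44 on the log2 scale. JUN rose from 58.3 to 179 CPM (1.62 ± 0.0488).

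Since PLK2 and PLK3 were described as immediate early and p53-responsive genes, these 2 groups were set beside them. Of 13 immediate early genes 12 were higher, against 32.3% of all genes, with a median LFC of 1.62, and CCN1 was not called (LFC 0.42, adjusted p = 0.0564). All 13 were higher with DESeq2, DESeq2 size factors, limma voom, filterByExpr or no filter. FOSB (LFC 4.91), ATF3 (4.90), FOS (4.77) and IER3 (3.40) rose further than both PLK2 and PLK3. Of 20 p53 targets 20 were higher, and their median LFC of 2.97 lay between those of PLK2 and PLK3. GDF15 (LFC 8.61), FAS (5.80), CDKN1A (5.68) and BBC3 (5.41) rose most in that list. GDF15 and FAS had vehicle means of only 0.487 and 0.385 CPM, and FOSB 0.730 CPM, so that their LFCs rest on few counts in vehicle. An element of the p53 consensus with at most 2 mismatches was found near 7 of 19 of the p53 targets and near 1 of 11 of the immediate early genes, by the search that found the perfect element upstream of PLK2. It was found near none of the 20 genes of the PLK1 list and near 1 of the 16 genes of the PLK4 list (CUL1, with 2 mismatches) that could be searched. The CHR letters were held by 4 of 13 promoters of the immediate early genes (30.8%) and by 4 of 30 promoters of the p53 targets (13.3%). A gene can have several promoters, and whether the CHR goes with the direction of a list was not tested. The genes of both lists are known for their response, so their direction is a description and not independent evidence about PLK2 or PLK3.

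**Figure D3:**
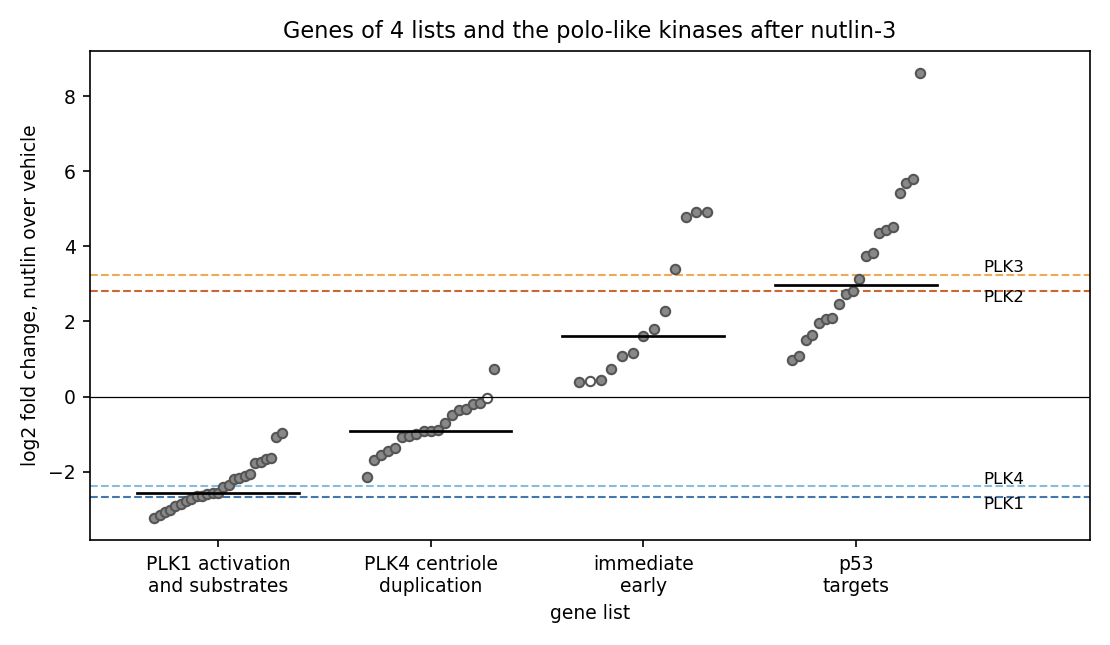
LFC (nutlin over vehicle) of the genes of 4 lists, with 1 point per gene, filled where SDE at 5% FDR and open where not, and a black line at the list's median. Dashed lines mark the 4 polo-like kinases: PLK1 (-2.68) lies near the median of its own list (-2.56), PLK4 (-2.38) lies below its whole list, and PLK2 (2.80) and PLK3 (3.25) lie on either side of the p53 target median (2.97).

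The transcripts of each gene were tested singly, among 52346 transcripts of which 26.4% were higher and 22.7% lower. All 8 tested transcripts of PLK2 and all 6 of PLK3 were higher, and of 9 tested for PLK4 7 were lower and 2 were not called. Several of these had low vehicle means, of 1.66 to 3.18 estimated counts for PLK2 and 5.76 to 9.69 for PLK3. Such transcripts could be kept for testing on their nutlin counts alone. The counts of calls therefore do not show that all transcripts of a gene moved alike. PLK2-201 rose from a mean of 546 to 3898 estimated counts and PLK3-201 from 36.4 to 539. PLK1 had 9 annotated transcripts, of which only 3 had counts enough to test. The main one, PLK1-201, fell from a median of 3181 to 470 estimated counts (LFC -2.73 ± 0.0804 SE, edgeR, adjusted p = 6.11e-17). Reads shared between transcripts of a gene were divided by kallisto, and the uncertainty of that division is not in the values used here.

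PLK1-202 was not called. This transcript, annotated as a retained intron and starting upstream of PLK1-201 at position 23677656, had 18.7 to 54.0 estimated counts in vehicle and 29.6 to 52.6 in nutlin samples, and the ranges of the conditions overlapped. Its LFC was 0.09 ± 0.164 (SE, edgeR, adjusted p = 0.682). For every 100 counts of PLK1-201 there were 0.701 to 1.80 counts of PLK1-202 in vehicle and 5.34 to 11.7 in nutlin samples. The retained-intron transcripts of PLK1 together, 4 in number, made up 2.23% ± 0.522 of its estimated counts in vehicle and 9.30% ± 1.92 after nutlin-3, without overlap. Of its TPM they made up 5.51% ± 1.38 and 12.1% ± 4.40, and there the conditions overlapped. Their summed estimated counts nonetheless went down, from a mean of 74.2 to 49.7, as PLK1-205 was lower (LFC -1.38, edgeR, adjusted p = 0.0407) and another, which had too few counts to test, went from 15.5 to 3.20. PLK1-202 was chosen after its values had been seen, and the difference between the 2 transcripts was not tested.

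**Figure D4:**
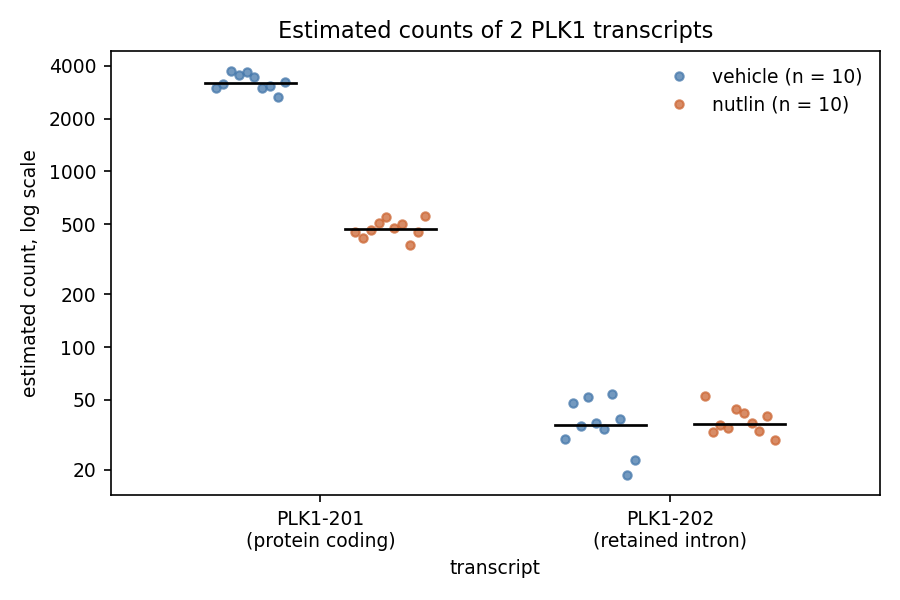
Estimated counts, on a log scale, of the transcripts PLK1-201 and PLK1-202 in 10 vehicle (blue) and 10 nutlin (orange) samples, with 1 point per sample and a line at the median. PLK1-201 goes from a median of 3181 to 470, whereas PLK1-202 has medians of 36.2 and 36.4.

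The transcript with the highest mean TPM over all 20 samples was taken for each gene, and its share of the gene's TPM moved for PLK1 and PLK3 (two-sided permutation test, 100000 resamples, adjusted over the 4 genes). PLK1-201 went from 93.1% ± 1.78 to 82.5% ± 4.95 of PLK1 (adjusted p = 4e-05). PLK3-201, the only transcript of PLK3 annotated as protein coding, went from 17.5% ± 7.48 to 29.8% ± 4.06 (adjusted p = 0.00054). It led only after nutlin-3, since in vehicle its mean of 1.07 TPM lay below those of PLK3-206 (1.66) and PLK3-205 (1.09), and most of the PLK3 TPM was thus given to transcripts without a defined coding sequence in both conditions. PLK2-201 held 63.0% ± 10.8 and 62.1% ± 4.40 (adjusted p = 0.81) and PLK4-210 24.1% ± 5.57 and 26.0% ± 8.89 (adjusted p = 0.756), where a change was not detectable. With only protein-coding transcripts counted, the LFC of PLK3 was 3.84 in place of 3.25.

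Among vehicle samples the 2 stress-induced members varied together. Over the 10 vehicle samples PLK2 and PLK3 had r = 0.825 (permutation test, adjusted p = 0.0256 over 12 relations) and rho = 0.879 (adjusted p = 0.0193), and without the 2 samples farthest from the PLK2 median r was 0.869. Both genes were highest in vehicle replicate 10, and the 4 lowest samples of each were replicates 4, 5, 6 and 7. Among these 4 the genes did not vary alike, PLK2 being lowest in replicate 6 (26.1 CPM), where PLK3 was highest (6.79 CPM). Differences in handling between samples were not separated from this relation. It was also not particular to the pair, since PLK3 correlated more closely in vehicle with BAMBI (r = 0.933), which rose little (LFC 0.27). Over the 10 nutlin samples r was 0.754 (adjusted p = 0.048) and rho 0.612 (adjusted p = 0.16), but r fell to 0.213 without 2 samples, so that this relation rests on them. PLK3 and PLK4 had r = 0.821 in nutlin samples (adjusted p = 0.0256, rho = 0.782 with adjusted p = 0.0618) and 0.556 without 2 samples. Replicates 4 and 6 had the lowest CPM of PLK2, PLK3 and PLK4 among the nutlin samples. PLK1 and PLK4, which fell together between conditions, had r = -0.557 within vehicle (adjusted p = 0.185) and -0.0562 within nutlin samples (adjusted p = 0.959).

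The genes most like each member were taken by the lower of their Pearson correlations within vehicle and within nutlin samples, over 10 samples each and 9880 genes whose mean was 10 CPM or more. They are a description, since they were picked for this value, and differences in library preparation or depth between samples were not separated from it. For PLK1 they were PRC1 (0.896), TPX2 (0.895) and CDCA8 (0.878), which act on the spindle or in cytokinesis and fell with LFCs of -2.72, -2.39 and -2.13. All 3, like PLK1, were lowest in nutlin replicate 9 and highest in nutlin replicate 11. For PLK2 they were TNFRSF10B (0.931), a death receptor, CDKN1A (0.928), the CDK inhibitor p21, and INTS7 (0.919), a subunit of the Integrator complex. TNFRSF10B and CDKN1A rose with LFCs of 4.55 and 5.68, and INTS7 fell by 0.39. In vehicle alone CDKN1A ranged 2.92-fold, from 18.8 to 54.9 CPM, and TNFRSF10B 2.24-fold, from 5.02 to 11.2 CPM, and both, like PLK2, were highest in replicate 10.

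For PLK3 and PLK4 the likeness within conditions did not go with a like response. PLK3 was most like BAMBI (0.933), a decoy receptor of TGF-beta signalling, C11orf96 (0.871) and IFT22 (0.869), of which BAMBI rose by only 0.27 and the other two fell by 0.54 and 0.67 on the log2 scale. PLK4 was most like RB1 (0.875), KCTD16 (0.873) and GRPEL2 (0.863). RB1, the retinoblastoma gene, fell by 0.33, and KCTD16 (LFC -0.03, edgeR, adjusted p = 0.857) and GRPEL2 (LFC 0.03, adjusted p = 0.637) were not called. The genes named as most like PLK2, PLK3 and PLK4 all had their lowest nutlin CPM in replicate 4, and their correlations without that sample were not computed.

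**Figure D5:**
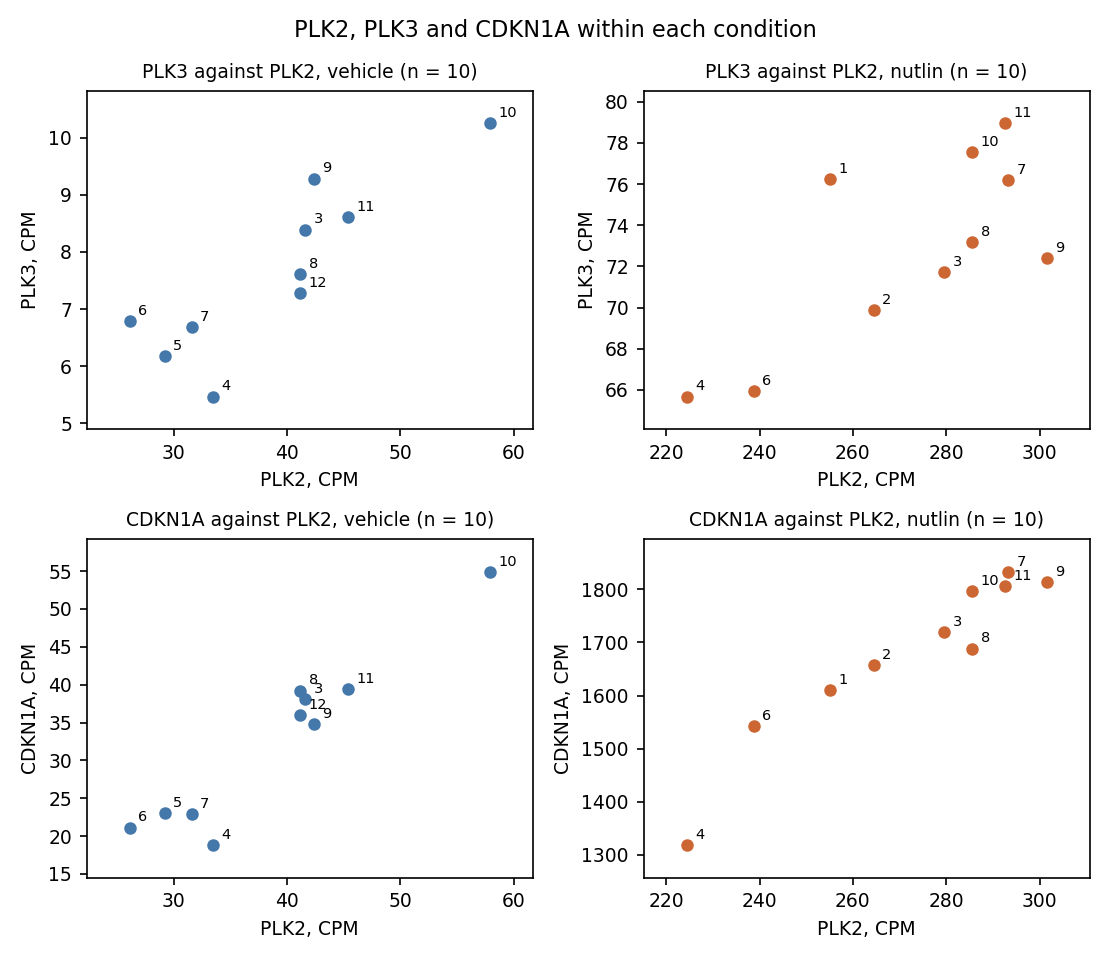
CPM of PLK3 (top) and CDKN1A (bottom) against CPM of PLK2 in the 10 vehicle (left) and 10 nutlin (right) samples, with 1 point per sample and its replicate number beside it. In vehicle, replicates 4 to 7 lie low and replicate 10 high for all 3 genes, and in nutlin samples replicate 4 lies lowest for all 3. Axes do not start at 0.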

How the data were processed

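For each of 20 samples the authors ran kallisto 0.42.4 on transcripts of GRCh38 (Ensembl release 85) and deposited, for 198968 transcripts, estimated counts without normalization, effective lengths in bases, and TPM, which kallisto scales by effective length and library size. Of these, 191106 transcripts were found in GENCODE release 44 (95.7% to 96.8% of a sample's counts). Those that belong to protein-coding or lncRNA genes were summed per gene and rounded.

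All 27697 genes with a summed count of 1 or more in both conditions entered the quasi-likelihood test of edgeR 4.0.16 (R 4.3.3), after TMM scaling. The model held the condition alone, and p-values were adjusted by Benjamini-Hochberg at 5% FDR. CPM are TMM-scaled, and standard errors of LFCs were derived from the F statistic. Transcripts kept by filterByExpr were tested alike. Ratios, transcript shares and correlations were tested by permutation in Python 3.11.15. The tests were tested on simulated data. Alternatives were DESeq2 1.42.0, its size factors, limma 3.58.1 (voom), other filters, an offset for effective length, protein-coding transcripts only, TPM, another pseudocount, 1% FDR and the replicate block. From each list the 4 SDE genes with the largest LFC, a mean of at least 1 CPM and no overlap were named, plus up to 4 against the list's direction. AURKA, BORA and genes not called were added after their values were seen. Some genes, and the counts of a list that holds them, are not reported here. The members and lists were chosen with earlier results of these data known. Counts give the precision of each sample, and p-values cover the spread between samples.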

Additional observations from a re-analysis of the deposited data

Results flagged for a closer look

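Of 36 groups of 10 values checked for a sample far from the others, 3 had one, and chance gives about 1 in 20. PLK1 was at 12.7 TPM in nutlin replicate 9, whereas the other nutlin samples lay between 17.03 and 21.8 TPM. The same sample was also the lowest for PLK1 in CPM (26.3). PLK3 was at 40.5 TPM in nutlin replicate 6, below the 48.6 to 56.1 TPM of the others, but in CPM this sample (66.0) lay beside nutlin replicate 4 (65.7). The transcript PLK4-210 made up 10.6% of PLK4 TPM in vehicle replicate 11, where the others had 21.8% to 31.5%. The source of these values was not tested.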

How the results depend on the processing

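Under the alternatives 193 recomputed values kept their direction and side of the threshold or, for counts of calls, stayed within 1.5 times, 7 levels moved by more than 1 SD and 1 ratio was no longer past the threshold. Single calls within the lists did change: lower genes of the PLK4 list numbered 15 to 17, higher immediate early genes 12 or 13, and called transcripts of the members 23 to 27. The LFC ranged from -2.80 to -2.61 for PLK1, from 2.77 to 2.88 for PLK2, from 3.0 to 3.84 for PLK3 and from -2.40 to -2.30 for PLK4, and each remained SDE under each of 11 settings, the main one included. The exception among the ratios was PLK2 to PLK3, which changed by -0.14 on TPM and was no longer past the threshold (adjusted p = 0.251), and the cause was not tested. With protein-coding transcripts alone, by construction fewer transcripts, mean TPM was 15.8 for PLK1 after nutlin-3, 13.3 and 91.5 for PLK2 in vehicle and nutlin, 1.07 and 15.2 for PLK3, and 35.1 and 6.64 for PLK4. The replicate block, over 16 samples with 8 shared numbers, gave 14276 SDE genes beside 14992 in the same samples without it (an alternative chosen after seeing the data) and 16275 in all 20, and changed no call of a member or ratio. Same-numbered samples did not deviate together (mean r = -0.0648 over 8 pairs, -0.224 to 0.179), and 0 of 8 correlated best with their own number, so the numbers were not taken to pair the samples. Counts of 77 to 159 limit PLK3 in vehicle, and estimated counts below 60 limit PLK1-202.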
